A study of Mus musculus with 12 samples.

Results

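The genes examined here encode the machinery of oxidative phosphorylation. They are the rows of the count table with a protein-coding biotype and a symbol that begins with Nduf, Uqcr, Cox4 to Cox8, Atp5 or mt-, together with Sdha, Sdhb, Sdhc and Sdhd. The rule took 105 of the 39171 genes in the table and used no measured value. Of these, 92 are nuclear genes and 13 lie on the mitochondrial genome. By textbook assignment the nuclear genes hold 36 subunits and 7 assembly factors of complex I, 4 subunits of complex II, 8 of complex III, 19 of complex IV and 15 of complex V. The other 3, Atp5s, Atp5sl and Atp5l-ps1, were set apart because they are not subunits.

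RNA was sequenced from kidney of male mice up to 3 months old, with 1 library per mouse. The groups were 4 sick mice homozygous for the GNE M743T knock-in allele, 4 healthy mice homozygous for the same allele, and 4 healthy wild-type mice. The sick and the healthy knock-in mice thus share the genotype and differ in phenotype, and no treatment is named for any group. The signs by which a mouse was classed as sick, litters and strain background were not given in the sources used here. GNE makes UDP-N-acetylglucosamine 2-epimerase and N-acetylmannosamine kinase, the enzyme that starts sialic acid synthesis. Values below run from mouse 1 to mouse 4 of each group, as CPM, the count of a gene relative to the size of its library after TMM scaling (trimmed mean of M-values), and differences are log2 fold changes ± SE.

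Oxidative phosphorylation moves electrons from NADH through complex I, and from succinate through complex II, to ubiquinone, complex III, cytochrome c and complex IV, which reduces oxygen. Complexes I, III and IV pump protons across the inner mitochondrial membrane, and complex V, the ATP synthase, uses the returning protons to make ATP. Mitochondrial DNA encodes core subunits of complexes I, III, IV and V, while all of complex II and the remaining subunits are nuclear. Proximal tubule and thick limb cells of the kidney are rich in mitochondria and pay for salt and solute transport largely by this route.

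Total counts ranged over 10605546 to 22633684 for sick, 18191087 to 21925419 for healthy knock-in and 13189478 to 19493856 for wild-type libraries. TMM factors were 1.23 to 1.39 for sick, 0.804 to 0.934 for healthy knock-in and 0.839 to 0.901 for wild-type libraries, so the scaling itself separated the sick libraries from the others. Wild-type mouse 2 stood apart: mt-Atp8, mt-Atp6 and mt-Co3 had 0 counts there, as did Kap, while every other library held more than 1000 counts of each. A count of 0 allows up to 3 counts in that library. Results that rest on wild-type mouse 2 are therefore given with and without it. After the filter on low counts 102 of the 105 genes were tested. The untested 3 were the complex IV isoform Cox7b2, Atp5l-ps1 and mt-Nd4l, none with more than 2 counts in any library.

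Transcripts of oxidative phosphorylation fell across all 5 complexes and both genomes in the sick kidneys. Against wild-type, 94 of the 102 tested genes were lower and 2 were higher at an adjusted p below 0.05 (edgeR quasi-likelihood test, Benjamini-Hochberg over 15589 genes). Over all genes tested, 50.9% were called in this comparison, 25% lower and 25.9% higher. The median log2 fold change of the 102 genes was -1.32, a 2.49-fold lower level, against a median of 0.02 over all genes. Without wild-type mouse 2 the counts were 96 lower and 2 higher, beside 25.9% lower and 26.9% higher of all genes, and the median was -1.01. For 85 of the 102 genes the highest sick mouse lay below the lowest wild-type mouse, as it did for 20.6% of all genes tested. Without wild-type mouse 2 this held for 88 genes, beside 26.3% of all, and Cox6b2 lay wholly above, a direction for which no share of all genes was computed. With library totals in place of TMM, 68 of the 102 genes were lower and 2 higher, beside 10.3% lower and 53.9% higher of all genes, whose median was then 0.61. In a bulk kidney library, fewer cells of a type and less RNA per cell cannot be told apart.

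Markers of the proximal tubule moved with these genes. All 18 fell in the sick mice against wild-type, with a median of -2.73, and their summed level was 4006 to 7656 CPM in sick, 32071 to 37859 CPM in healthy knock-in and 31432 to 38796 CPM in wild-type mice. Slc7a13, a transporter of the straight proximal tubule, fell by 5.89 (adjusted p = 2.32e-05). Of the thick ascending limb markers 5 of 8 fell, led by Egf at -4.85, and of the distal and connecting tubule markers 3 of 6 fell, led by Pvalb at -5.78. Among 10 collecting duct and intercalated cell markers 2 rose, with Aqp2 at 1.94, and 2 fell, with Slc4a1 at -2.36. With library totals these became 2 lower and 1 higher for the thick ascending limb, and 3 lower and 1 higher for the distal and connecting tubule. For the collecting duct they became 6 higher and 2 lower, and without wild-type mouse 2 they were 1 higher and 2 lower. Over all genes tested, 25% were lower and 25.9% higher with TMM, and 10.3% lower and 53.9% higher with library totals. Beside these shares the collecting duct counts are not read as a change. All 14 tubular injury markers, 10 of 11 macrophage and leukocyte markers and all 10 fibroblast markers rose, with Krt20 at 7.05, Lyz2 at 3.74 and Col1a1 at 3.87. The part of this shift in cell markers in the results on oxidative phosphorylation was not tested.

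The DNA just upstream of 4 of these genes is shown because they include members that were lower and 1 that was higher in sick mice. Atp5k and Sdhb, subunits of complexes V and II, and Cox6b1, a common subunit of complex IV, were lower in sick mice. Cox6b2, the testis-enriched partner of Cox6b1, was higher. The 150 bases before each RefSeq start (GRCm38.p6) are written 5′ to 3′ along the gene and lie at chr5:108434400-108434549 on the minus strand, chr4:140961121-140961270 on the plus strand, chr7:30626115-30626264 on the minus strand and chr7:4753095-4753244 on the minus strand. Capitals mark CATGCGC, a core of the site of the respiratory gene activator NRF1, and CCGGAAG, the core recognised by ETS factors such as GABP, in either orientation.
Atp5k: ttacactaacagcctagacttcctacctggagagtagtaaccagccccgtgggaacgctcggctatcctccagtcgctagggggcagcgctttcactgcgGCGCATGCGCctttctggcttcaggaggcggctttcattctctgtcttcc
Sdhb: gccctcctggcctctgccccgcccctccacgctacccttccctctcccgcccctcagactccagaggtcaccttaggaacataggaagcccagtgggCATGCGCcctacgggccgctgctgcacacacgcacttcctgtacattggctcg
Cox6b1: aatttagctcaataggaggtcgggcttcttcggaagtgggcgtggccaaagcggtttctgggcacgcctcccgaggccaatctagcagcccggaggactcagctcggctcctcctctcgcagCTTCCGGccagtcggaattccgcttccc
Cox6b2: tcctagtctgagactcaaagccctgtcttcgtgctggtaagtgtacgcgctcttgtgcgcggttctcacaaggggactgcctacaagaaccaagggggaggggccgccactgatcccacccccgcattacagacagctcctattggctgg

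The Atp5k sequence held CATGCGC on both strands in 1 overlapping palindrome, that of Sdhb held it once, that of Cox6b1 held 1 CCGGAAG on the reverse strand, and that of Cox6b2 held neither. RefSeq windows of 300 bases (250 before to 50 after the start) were found for 76 of the 92 nuclear genes, and both strands were searched. CATGCGC was in windows of 19.7% of the 76 genes and of 4.41% of all 27025 genes. CCGGAAG was in windows of 22.4% of the 76 and of 9.93% of all genes. At least 1 of the motifs was found for 26 of the 76 genes (34.2%) and for 13.5% of all. The lower genes shown, Atp5k, Sdhb and Cox6b1, are among these 26, while most of the 76 had neither motif. Whether the motifs went with the direction of change was not tested. A match describes letters in the window and says nothing of binding.

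Less of each sick library came from the mitochondrial genome. The 13 mt- genes took 5.29, 6.32, 7.46 and 9.06% of all counts in the sick mice, 15.6, 14.3, 15.6 and 15.7% in the healthy knock-in mice and 14.8, 11.1, 16.5 and 15.8% in the wild-type mice. Every sick mouse lay below every other mouse. The lowest of the others was wild-type mouse 2, the library with 3 of these genes at 0 counts. Over the 9 mt- genes that were tested and counted in every library, the shares were 3.83, 4.54, 5.21 and 6.53% in sick, 11.6, 10.6, 11.3 and 11.6% in healthy knock-in and 10.8, 11.1, 12.1 and 11.6% in wild-type mice, and wild-type mouse 2 then lay among its group.

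The 92 nuclear genes took 0.99, 1.13, 1.80 and 1.24% of all counts in the sick mice, 1.77, 1.92, 1.88 and 1.85% in the healthy knock-in mice and 2.03, 3.17, 1.90 and 1.85% in the wild-type mice. On this raw share sick mouse 3 lay within the range of the healthy knock-in mice and wild-type mouse 2 lay far above its group. Scaled by TMM, the summed level of the nuclear genes was 7136, 8502, 14678 and 9477 CPM in the sick, 20467, 20533, 20904 and 22954 CPM in the healthy knock-in and 22546, 36449, 21682 and 22051 CPM in the wild-type mice, with no overlap between the sick and the other mice. Counts from the 9 mt- genes were 3.86, 4.01, 2.89 and 5.28 times those of the nuclear genes in sick mice, 6.56, 5.52, 5.99 and 6.30 times in healthy knock-in mice and 5.29, 3.49, 6.39 and 6.29 times in wild-type mice. This ratio needs no scaling between libraries. All 4 sick mice lay below all healthy knock-in mice, while wild-type mouse 2, at 3.49, lay inside the sick range.

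**Figure D1:**
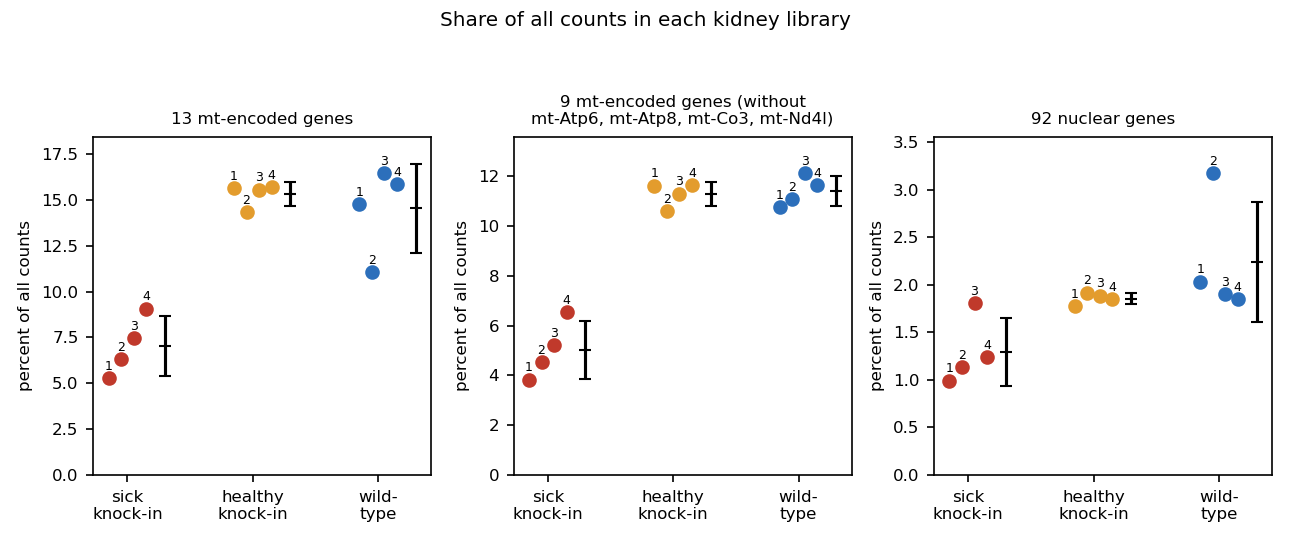
Percent of all counts in each library taken by all 13 mt- genes, by the 9 mt- genes tested and counted in every library, and by the 92 nuclear genes. Points are mice and bars the mean ± SD of 4 mice per group, with sick left, healthy knock-in next and wild-type right. The 13-gene share was 5.29 to 9.06% in sick mice and 11.1 to 16.5% in wild-type mice, and the high point in the nuclear panel is wild-type mouse 2 at 3.17%.

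The 9 genes on the mitochondrial genome with counts in every library fell by 1.52 to 2.19 on the log2 scale against wild-type, all at an adjusted p below 0.05. Without wild-type mouse 2 all 12 tested mt- genes fell, with a median of -1.70. The nuclear genes had a median of -1.28, and -0.96 without wild-type mouse 2. The difference between the genomes was not tested.

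The NADH dehydrogenase subunits of complex I had a median of -1.92 over the 6 tested. mt-Nd2 had 1564, 2049.9, 2415 and 3348 CPM in the sick mice, 11848, 9686, 10558 and 12870.0 CPM in the healthy knock-in mice and 9554, 9275, 11534 and 12281 CPM in the wild-type mice. No sick mouse reached the level of any other mouse, and the difference from wild-type was -2.19 ± 0.27 (SE), adjusted p = 3.49e-05. mt-Nd5 had 2370.4, 2729, 1937 and 3406 CPM in the sick mice, 12205, 9534, 10058 and 12360.0 CPM in the healthy knock-in mice and 9219, 5406, 11866 and 11460.0 CPM in the wild-type mice. This subunit of the proton-pumping arm was also lower in wild-type mouse 2 than in the other wild-type mice, and fell by 1.86 ± 0.29 (SE, adjusted p = 0.000206). mt-Nd3 was at -2.10, mt-Nd4 at -1.98, mt-Nd6, the subunit encoded on the light strand, at -1.73 and mt-Nd1 at -1.60 (adjusted p = 0.000372, 0.000112, 0.000207 and 0.000296). In the wild-type libraries mt-Nd3 had 16209, 59048, 18853 and 27476 counts and mt-Nd6 had 45816, 91195, 44891 and 54679. The values of both therefore rest in part on wild-type mouse 2. Without that mouse the 6 genes ran from -2.26 to -1.54, with a median of -1.90.

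mt-Cytb encodes cytochrome b, the only complex III subunit on this genome. mt-Cytb had 3579, 4321, 5519 and 6873 CPM in the sick mice, 21875, 18105, 20320.0 and 22614 CPM in the healthy knock-in mice and 19304, 18320.0, 22541 and 22476 CPM in the wild-type mice. The sick values lay apart from both other groups and the log2 fold change was -2.03 ± 0.27 (SE), adjusted p = 6.6e-05. mt-Co1 holds the catalytic oxygen-reducing centre of complex IV. mt-Co1 had 9428, 11372, 14128 and 15593 CPM in the sick mice, 34566, 31785, 34460.0 and 36957 CPM in the healthy knock-in mice and 33666, 35294, 37996 and 37701 CPM in the wild-type mice. The fold change against wild-type was -1.52 ± 0.27 (SE), adjusted p = 0.000536. mt-Co2, which takes electrons from cytochrome c, was at -1.68 ± 0.29 (SE), adjusted p = 0.000445.

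The remaining 3 of the 12 lie next to each other on the genome. mt-Atp8 (chrM:7766-7969) and mt-Atp6 (chrM:7927-8607) encode the 2 complex V subunits made in mitochondria, and mt-Co3 (chrM:8607-9390) a structural subunit of complex IV (GRCm38, GENCODE M21 annotation). mt-Atp6 had 4802, 5910.2, 7716 and 8584 CPM in the sick mice, 21121, 17649, 20973 and 22305 CPM in the healthy knock-in mice and 19910.0, 0, 22025 and 22060.0 CPM in the wild-type mice. mt-Atp8 had 1099.8, 1334, 1177 and 1752 CPM in the sick mice, 4498, 3865, 4419.8 and 4594 CPM in the healthy knock-in mice and 4308, 0, 4888 and 4803 CPM in the wild-type mice. mt-Co3 had 4659, 6148, 9456 and 9023 CPM in the sick mice, 20725, 18420.0, 21918 and 23416 CPM in the healthy knock-in mice and 20161, 0, 22638 and 23335 CPM in the wild-type mice. In each gene the 4 sick mice lay below the 4 healthy knock-in mice and below wild-type mice 1, 3 and 4, and wild-type mouse 2 alone was at 0. With all 12 libraries the test called none of them (-1.38 ± 1.21 (SE), adjusted p = 0.364 for mt-Atp8; -1.24 ± 1.33 (SE), adjusted p = 0.462 for mt-Atp6; -1.18 ± 1.33 (SE), adjusted p = 0.49 for mt-Co3). Without wild-type mouse 2 all 3 fell, by 1.81 for mt-Atp8 (adjusted p = 2.49e-05), 1.67 for mt-Atp6 (adjusted p = 0.000264) and 1.60 for mt-Co3 (adjusted p = 0.000665).

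These genes share bases, which can matter for how reads were assigned to them. mt-Atp8 and mt-Atp6 overlap by 43 bases at chrM:7927-7969 on the plus strand, beginning with the mt-Atp6 start codon and ending with the mt-Atp8 stop codon. This overlap is shown because mt-Atp8 and mt-Atp6, both at 0 in wild-type mouse 2, meet here, while mt-Co3 and Kap, also at 0, do not. The part of the overlap in the counts of 0 was not tested.
mt-Atp8 and mt-Atp6 overlap: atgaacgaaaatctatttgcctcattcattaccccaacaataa
mt-Atp6 and mt-Co3 share 1 base, at position 8607, and mt-Nd4l and mt-Nd4 share 7 bases. mt-Nd4l had at most 2 counts in any library, and was not tested. How the authors' counting treated overlapping genes, nuclear copies of mitochondrial genes and processed pseudogenes was not given in the sources used here. Per kilobase of transcript, mt-Atp6 was the most abundant of the 12 tested mt- genes, with a mean of 9916 CPM per kb in sick mice and 31324 CPM per kb in wild-type mice 1, 3 and 4. mt-Nd3 was the lowest at 1377 and 4535 CPM per kb in the same groups.

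Complex I has the most nuclear genes, and all 36 tested subunits fell, with a median of -1.31 (-0.99 without wild-type mouse 2). The 7 core subunits that carry flavin and iron-sulfur clusters or bind ubiquinone had a median of -1.29, and the 29 accessory subunits a median of -1.33. Ndufs1 had 87.5, 101, 155 and 106 CPM in the sick mice, 367, 332, 335 and 354 CPM in the healthy knock-in mice and 384, 328, 402 and 391 CPM in the wild-type mice. Ndufs1 (chr1:63143596-63176833), the largest iron-sulfur subunit, had the most negative value of the complex, -1.75 ± 0.17 (SE), adjusted p = 7.68e-06, and its level in wild-type mouse 2 was the lowest of the wild-type group. Ndufa7 had 29.9, 34.6, 50.8 and 39.6 CPM in the sick mice, 49.1, 51.1, 52.2 and 54.9 CPM in the healthy knock-in mice and 55.2, 98.3, 47.5 and 49.0 CPM in the wild-type mice. This accessory subunit had the least negative value, -0.70 ± 0.23 (SE), adjusted p = 0.0217, and sick mouse 3 lay inside the range of both other groups. For Ndufa7 the call was lost without sick mouse 1 or sick mouse 2 (adjusted p = 0.0663 and 0.0575).

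The 7 assembly factors of complex I all fell, with a median of -1.08, and 6 of 7 were called without wild-type mouse 2. Ndufaf4 had 19.7, 21.4, 38.9 and 29.4 CPM in the sick mice, 56.6, 57.8, 49.9 and 62.4 CPM in the healthy knock-in mice and 67.3, 75.5, 66.0 and 74.8 CPM in the wild-type mice. Ndufaf4, which acts early in assembly, had the most negative value, -1.38 ± 0.19 (SE), adjusted p = 7.65e-05. Ndufaf5 had 5.96, 5.87, 10.4 and 7.39 CPM in the sick mice, 9.97, 12.2, 11.6 and 11 CPM in the healthy knock-in mice and 12.7, 20.6, 10.7 and 8.80 CPM in the wild-type mice. Ndufaf5, which modifies an arginine of a core subunit, was the least negative at -0.85 ± 0.26 (SE), adjusted p = 0.0166, and its sick and wild-type values overlapped. For Ndufaf5 the call was lost without sick mouse 1 or sick mouse 2 (adjusted p = 0.0505 and 0.0506). Ndufaf2 was the one factor not called without wild-type mouse 2 (adjusted p = 0.068), at -0.60.

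**Figure D2:**
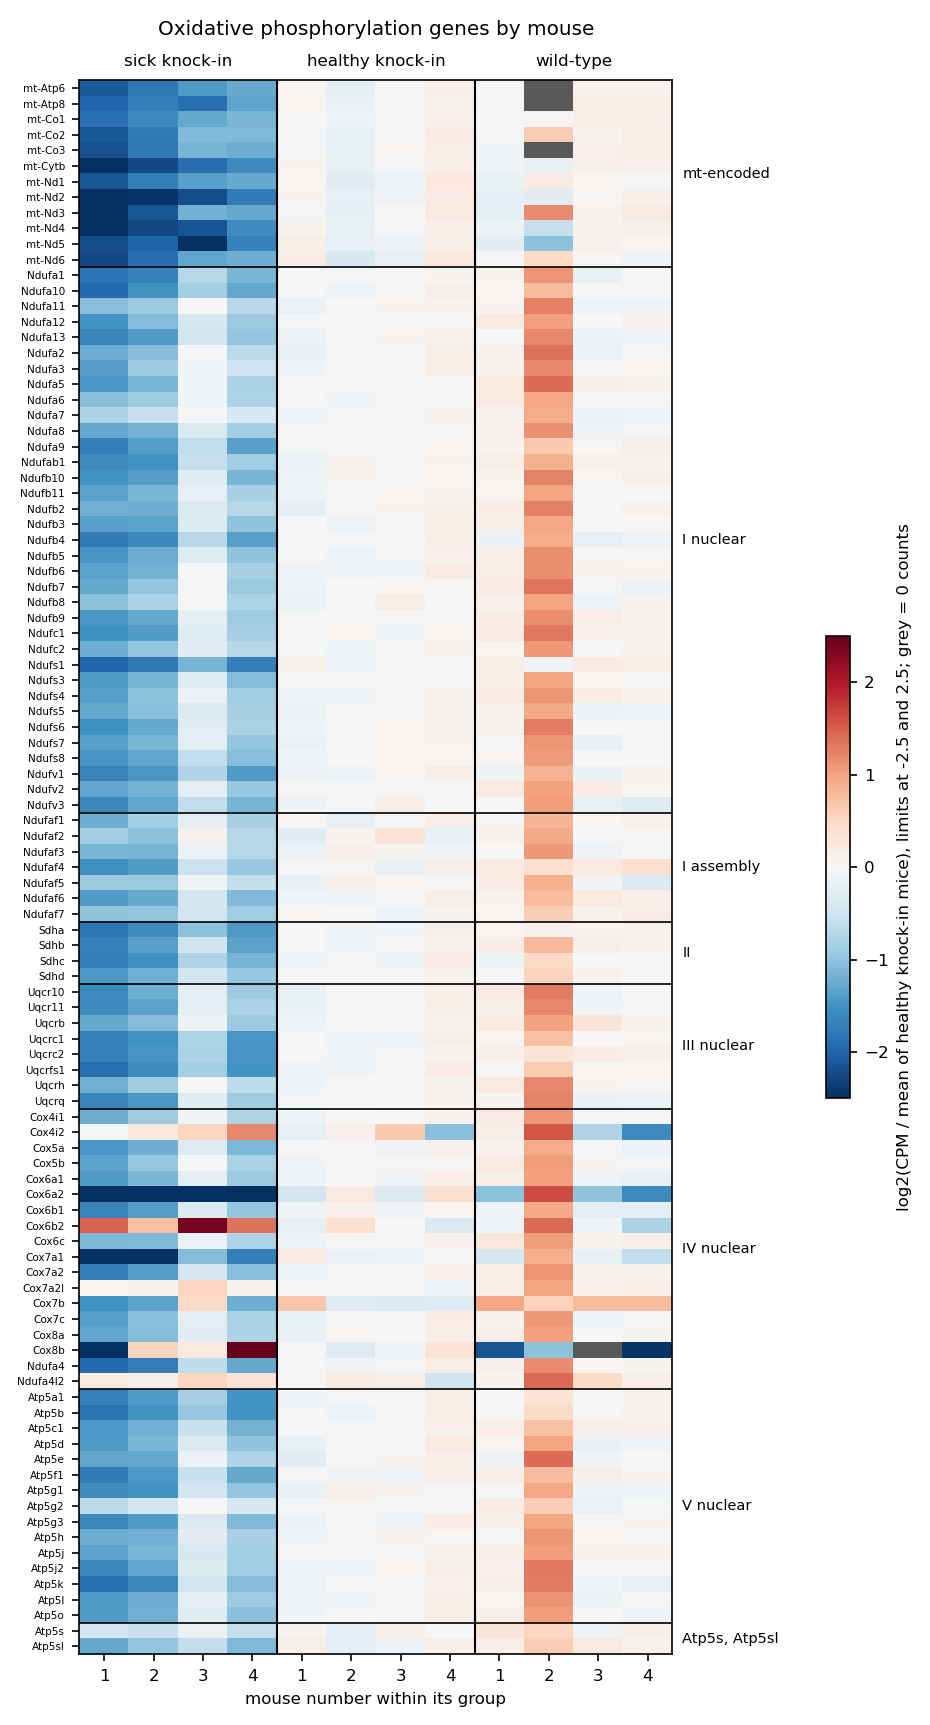
Levels of tested genes in each mouse, as log2 of CPM over the mean of the healthy knock-in mice, grouped by complex and genome. Colours run from -2.5 to 2.5 and grey marks 0 counts. Sick mice are on the left, mostly below the healthy knock-in mean with sick mouse 3 nearest to it among the nuclear genes, and wild-type mouse 2 is above it for most nuclear genes and at 0 for mt-Atp8, mt-Atp6 and mt-Co3.

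Complex II, succinate dehydrogenase, joins the citric acid cycle to the chain and has no mitochondrially encoded subunit. All 4 genes fell, with a median of -1.43. Sdha had 239, 292, 419 and 320.4 CPM in the sick mice, 847, 810.4, 813 and 938 CPM in the healthy knock-in mice and 883, 901, 907 and 922 CPM in the wild-type mice. Sdha (chr13:74322254-74350280), the flavoprotein that oxidises succinate, was at -1.51 ± 0.17 (SE), adjusted p = 1.75e-05, and the wild-type values, mouse 2 included, lay within 883 to 922 CPM. Sdhb had 113, 142, 259 and 144 CPM in the sick mice, 372, 343, 357 and 388 CPM in the healthy knock-in mice and 415, 644, 409 and 388 CPM in the wild-type mice. Sdhb, the iron-sulfur subunit, was at -1.5 ± 0.25 (SE), adjusted p = 0.000297. The membrane anchors were at -1.36 ± 0.21 (SE), adjusted p = 0.000192 for Sdhc and -1.16 ± 0.20 (SE), adjusted p = 0.000448 for Sdhd. In Sdhb, Sdhc and Sdhd wild-type mouse 2 had the highest level of the 12 mice and sick mouse 3 the highest of the sick mice, and in none of the 4 genes did the sick mice overlap the others.

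All 8 nuclear genes of complex III fell, with a median of -1.36 (-0.97 without wild-type mouse 2). Uqcrfs1 had 105, 131, 216 and 139.6 CPM in the sick mice, 369, 372, 379 and 446 CPM in the healthy knock-in mice and 383, 611, 404 and 404 CPM in the wild-type mice. Uqcrfs1, the Rieske iron-sulfur protein, was at -1.61 ± 0.22 (SE), adjusted p = 8.39e-05, the most negative value with all libraries. It was at -1.43 without wild-type mouse 2, and Uqcrc2, the other core protein, was the most negative at -1.47. Uqcrc1 had 167, 188, 313 and 196 CPM in the sick mice, 532, 509, 509 and 598 CPM in the healthy knock-in mice and 559, 897, 536 and 552 CPM in the wild-type mice. Uqcrc1, a core protein of the complex, fell by 1.56 ± 0.22 (SE, adjusted p = 0.000112). Uqcrh had 84.0, 105, 195 and 125 CPM in the sick mice, 184, 194, 192 and 207 CPM in the healthy knock-in mice and 227, 448, 204 and 199 CPM in the wild-type mice. Uqcrh, the hinge protein that sits at the cytochrome c docking site, was the least negative at -1.09 ± 0.29 (SE), adjusted p = 0.00704, and sick mouse 3 lay inside the healthy knock-in range but below all wild-type mice.

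All 15 nuclear genes of complex V fell, with a median of -1.34 (-1.01 without wild-type mouse 2). The 5 genes of the catalytic F1 head had a median of -1.37 and the 10 others a median of -1.32. Atp5b had 975, 1244, 1834 and 1249 CPM in the sick mice, 3380.5, 3307, 3498 and 3870.0 CPM in the healthy knock-in mice and 3557, 4884, 3534 and 3735 CPM in the wild-type mice. Atp5b (chr10:128083273-128090391), the catalytic beta subunit, was at -1.57 ± 0.22 (SE), adjusted p = 9.02e-05. Atp5k had 31.5, 37.7, 83.3 and 54.2 CPM in the sick mice, 107, 117, 113 and 124 CPM in the healthy knock-in mice and 125, 285, 110.2 and 103 CPM in the wild-type mice. Atp5k, the small e subunit at the dimer interface, was at -1.60 ± 0.35 (SE), adjusted p = 0.0021, the most negative value with all libraries. It was at -1.14 without wild-type mouse 2, and Atp5b was the most negative at -1.45. The sick mice lay below all others for both genes. Atp5s, a coupling factor, and Atp5sl, a gene named for its likeness to it, are kept apart from the 15 and were at -0.67 ± 0.17 (SE), adjusted p = 0.00574 and -1.25 ± 0.17 (SE), adjusted p = 8.23e-05.

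Atp5g1, Atp5g2 and Atp5g3 encode the same mature c subunit of the rotor ring and can be compared per kilobase. Atp5g3 averaged 466 CPM per kb in sick mice and 1006 CPM per kb in wild-type mice 1, 3 and 4, Atp5g2 48.7 and 62.5, and Atp5g1 15.8 and 31.6. The lengths used were 718 bases for Atp5g3, 586 for Atp5g2 and 2676 for Atp5g1. Before division by length Atp5g1 had more counts than Atp5g2 in every library. The order of Atp5g1 and Atp5g2 per kilobase therefore rests on these lengths. Atp5g2 had 23.3, 26.7, 36.4 and 27.7 CPM in the sick mice, 35.4, 37.6, 35.9 and 37.4 CPM in the healthy knock-in mice and 41.3, 56.4, 32.8 and 35.8 CPM in the wild-type mice. Atp5g2 had the least negative value of the complex, -0.55 ± 0.18 (SE), adjusted p = 0.0204, its groups overlapped, and with library totals alone it was at 0.034. For Atp5g2 the call was lost without sick mouse 1 or sick mouse 2 (adjusted p = 0.0643 and 0.0523).

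**Figure D3:**
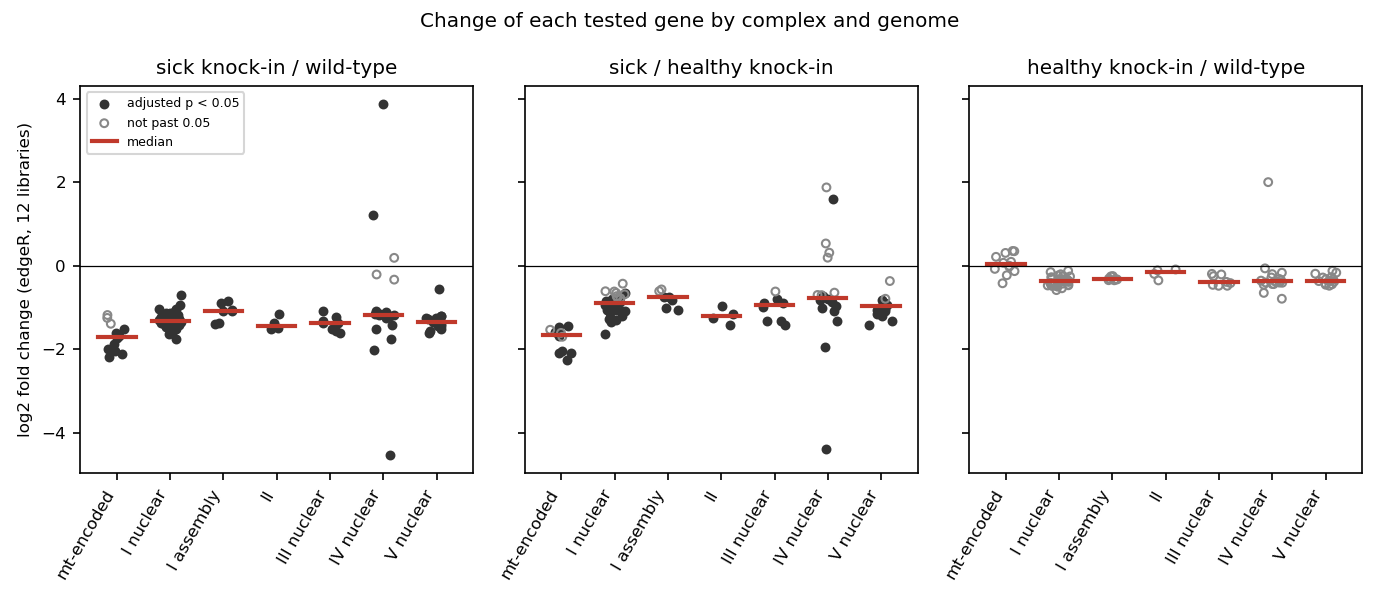
Log2 fold changes of the tested genes by complex and genome, with 1 point per gene and 1 panel per comparison: sick over wild-type, sick over healthy knock-in and healthy knock-in over wild-type. Medians in the first panel include -1.08 for complex I assembly factors and -1.71 for the mt- genes, and in the last panel most nuclear points lie a little below 0.

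Complex IV was the one complex with genes called in both directions. Of 18 tested nuclear subunits 13 fell, 2 rose and 3 were not called, with a median of -1.16. The 2 that rose, Cox6b2 and Cox8b, are tissue-restricted isoforms at low levels. With the 8 libraries of this comparison alone, 0 genes were called higher. Without the tissue-restricted isoforms, the sick mice lay below all wild-type mice in 11 of 12 subunits, beside 20.6% of all genes tested. Ndufa4, once counted with complex I and now placed in complex IV, had the most negative value among the ubiquitous subunits with all libraries. Ndufa4 had 115, 134, 284 and 181 CPM in the sick mice, 432, 413, 428 and 490.1 CPM in the healthy knock-in mice and 481, 1005, 456 and 465 CPM in the wild-type mice. Its log2 fold change was -1.76 ± 0.31 (SE), adjusted p = 0.000524. It was at -1.40 without wild-type mouse 2, and Cox7b was the most negative at -1.5. Cox4i1 had 216, 276, 472 and 301 CPM in the sick mice, 477, 506, 516 and 548 CPM in the healthy knock-in mice and 588, 1105, 495 and 505 CPM in the wild-type mice. Cox4i1, the common isoform of subunit 4, was at -1.09 ± 0.28 (SE), adjusted p = 0.00604. Sick mice lay below all others for both genes.

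The 3 not called were Cox4i2 at 0.19 (adjusted p = 0.798), Ndufa4l2 at -0.33 (adjusted p = 0.367) and Cox7a2l at -0.20 (adjusted p = 0.411). All 3 values rested on wild-type mouse 2: without it Cox4i2 was at 1.11 (adjusted p = 0.0944), Ndufa4l2 at 0.057 (adjusted p = 0.842) and Cox7a2l at 0.055 (adjusted p = 0.732), so Ndufa4l2 and Cox7a2l changed sign and none was called. Cox4i2 and Ndufa4l2 are alternative isoforms known for their hypoxia response, and both were near or below 10 CPM in every mouse. Cox7a2l, named after its values were seen, links complexes III and IV into supercomplexes. Cox7a2l had 111, 113, 155 and 112 CPM in the sick mice, 109, 108, 109 and 101 CPM in the healthy knock-in mice and 120.1, 213, 115 and 116 CPM in the wild-type mice. All 4 sick mice were above all 4 healthy knock-in mice, while against wild-type the groups overlapped.

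Several complex IV subunits exist as a common isoform and a tissue-restricted one, and 4 such pairs are given together. Cox6a1, Cox6b1, Cox7a2 and Cox8a, the common forms, fell by 1.16, 1.20, 1.5 and 1.18 on the log2 scale, with adjusted p of 0.00493, 0.00608, 0.000852 and 0.00218. Cox6b1 had 103, 125, 257 and 164 CPM in the sick mice, 305, 353, 308 and 337 CPM in the healthy knock-in mice and 309, 632, 277 and 273 CPM in the wild-type mice. Cox6b2 had 7.54, 4.58, 14.1 and 6.88 CPM in the sick mice, 2.35, 3.62, 2.74 and 2.10 CPM in the healthy knock-in mice and 2.59, 7.19, 2.51 and 1.56 CPM in the wild-type mice. Sick mice were below all others for Cox6b1. For Cox6b2 they were above all healthy knock-in mice but overlapped wild-type mouse 2. Cox6b2 rose by 1.23 ± 0.45 (SE), adjusted p = 0.0358 against wild-type. It lost the call with the 8 libraries of this comparison alone (adjusted p = 0.0687) and in 5 of 8 fits that left out 1 of them, by sick mouse 1, sick mouse 3 or wild-type mouse 1, 3 or 4, at adjusted p of 0.0553 to 0.121. Without wild-type mouse 2 it was at 1.88 ± 0.39 (SE), adjusted p = 0.00181.

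Cox6a2 and Cox7a1 are the heart and skeletal muscle isoforms. Cox6a2 had 0.122, 0.0995, 0.153 and 0.257 CPM in the sick mice, 2.35, 3.88, 2.57 and 4.37 CPM in the healthy knock-in mice and 1.62, 10.2, 1.65 and 1.11 CPM in the wild-type mice. The sick libraries held 3, 3, 2 and 5 counts of Cox6a2, the healthy knock-in libraries 37, 74, 45 and 77 and the wild-type libraries 20, 173, 19 and 17. Its log2 fold change was -4.54 ± 0.77 (SE), adjusted p = 0.000389, and -3.20 without wild-type mouse 2 (adjusted p = 7.25e-05). Cox7a1 had 1.90, 1.19, 5.21 and 3.34 CPM in the sick mice, 12.7, 9.86, 10.5 and 10.8 CPM in the healthy knock-in mice and 8.08, 20.6, 9.70 and 7.17 CPM in the wild-type mice. Cox7a1 was at -2.01 ± 0.43 (SE), adjusted p = 0.00188, with the sick mice below all others. Skeletal muscle markers summed to 2.31, 17.9, 5.21 and 18.6 CPM in the sick mice, 308, 274, 301 and 444 CPM in the healthy knock-in mice and 1.46, 3.71, 2.43 and 3.39 CPM in the wild-type mice. Of 12 tested, 8 were higher and 1 lower in sick against wild-type mice, from Ckm at 4.06 to Myh1 at -2.65. When wild-type mouse 2 was left out, 6 were higher and Myh1 was not called, at -1.73 (adjusted p = 0.14). With library totals 8 were higher and Myh1 was again not called, at -2.09 (adjusted p = 0.0516). The wild-type sums lay within or below the sick range, while both isoforms were higher in wild-type than in sick mice. The part of muscle markers in the isoform values was not tested.

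Cox8b, the isoform of heart, skeletal muscle and brown fat, had low counts. Cox8b had 0.081, 1.06, 0.844 and 8.68 CPM in the sick mice, 0.698, 0.577, 0.686 and 0.908 CPM in the healthy knock-in mice and 0.162, 0.353, 0 and 0.13 CPM in the wild-type mice. The wild-type libraries held 2, 6, 0 and 2 counts. Cox8b rose by 3.89 ± 1.14 (SE), adjusted p = 0.0123, but without sick mouse 4 the value was 1.88 with an adjusted p of 0.0711. Brown and white fat markers summed to 7.66, 100.1, 103 and 508 CPM in the sick mice, 5.21, 12.5, 4.75 and 2.04 CPM in the healthy knock-in mice and 13, 2.65, 8.57 and 21.4 CPM in the wild-type mice. All 4 tested fat markers were higher in sick mice, led by Cidec at 4.13, and sick mouse 4 was highest in both Cox8b and the fat sum. The part of the fat markers in the Cox8b value was not tested.

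Cox7b, the ubiquitous small subunit 7b, varied widely within the sick and the healthy knock-in group. Cox7b had 79.3, 89.4, 315 and 97.5 CPM in the sick mice, 364, 183, 176 and 182 CPM in the healthy knock-in mice and 442, 336, 391 and 388 CPM in the wild-type mice. Sick mouse 3 and healthy knock-in mouse 1 were near the wild-type level, while the other 3 sick and the other 3 healthy knock-in mice each lay close together at lower levels. Against wild-type the value was -1.42 ± 0.41 (SE), adjusted p = 0.0114, and -2.14 without sick mouse 3 (adjusted p = 4.49e-05). Against healthy knock-in mice it was -0.64 ± 0.41 (SE), adjusted p = 0.216, and -1.35 without sick mouse 3 (adjusted p = 0.00104).

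**Figure D4:**
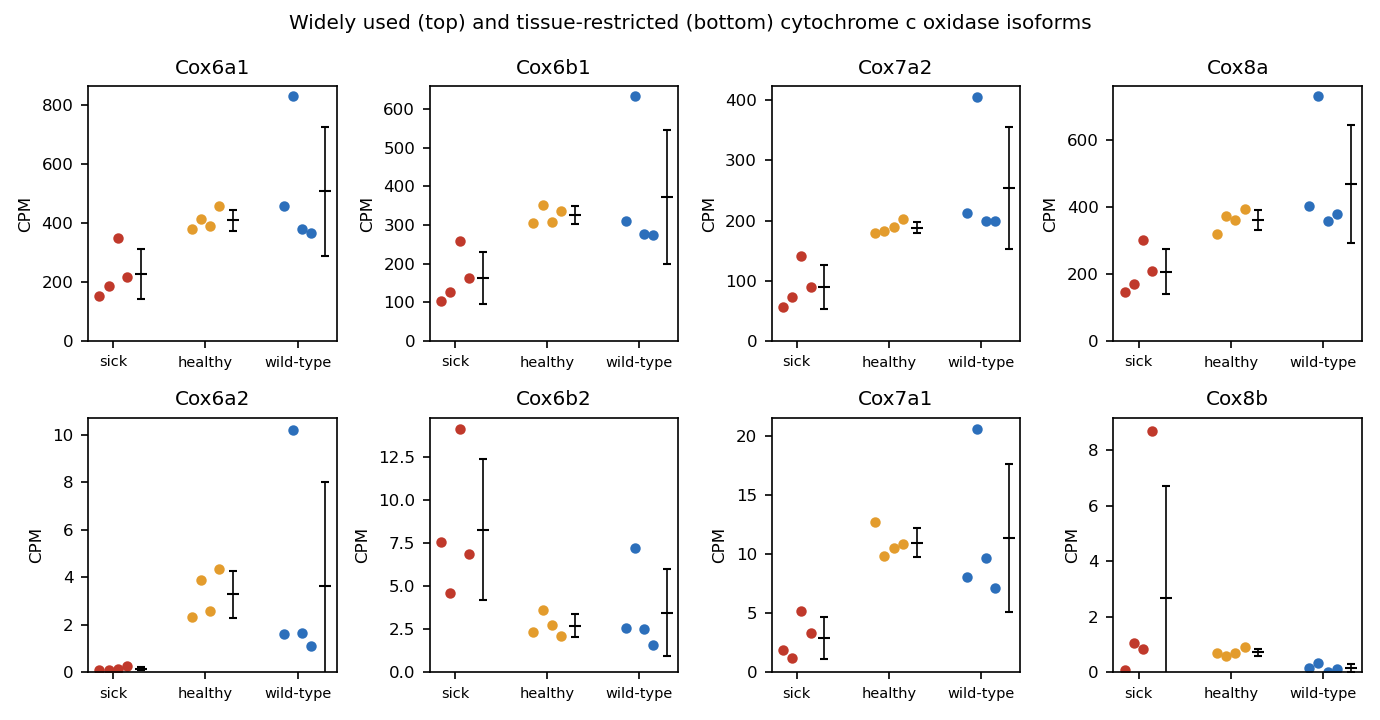
CPM of the common isoform and its tissue-restricted partner for subunits 6a, 6b, 7a and 8 of complex IV, by group. Points are mice and bars the mean ± SD of 4 mice, cut at 0. The common forms are lowest in the sick mice, Cox6b2 is higher in them at 4.58 to 14.1 CPM, and the Cox8b mean rests on sick mouse 4 at 8.68 CPM.

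Sick and healthy mice of the same knock-in genotype also differed across these genes. This comparison shares the sick libraries with the one above, so each is given by its own values. In it 77 of the 102 genes were lower and 1, Cox6b2, was higher, beside 46.4% of all genes called, 21.9% lower and 24.5% higher. The median was -0.95, against 0.05 over all genes. The sick mice lay below all healthy knock-in mice in 82 genes, as in 23.2% of all genes tested, and above them in Cox7a2l and Cox6b2. The share of all genes lying wholly above was not computed. The count depended on the libraries that shared in the estimate of spread: without wild-type mouse 2, which is in neither group, 95 were lower and 1 was higher, beside 25.9% lower and 27.7% higher of all genes. Leaving out 1 sick mouse gave 53 lower without mouse 1, 54 without mouse 2, 93 without mouse 3 and 62 without mouse 4. The share of all genes called lower in these fits is not given here, so the change in number cannot be read as particular to these genes. With library totals in place of TMM, 31 genes were lower and 4 higher, beside 9.16% lower and 55% higher of all genes.

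By complex, 28 of 36 nuclear subunits of complex I were lower (median -0.89), 4 of 4 of complex II (-1.2), 7 of 8 of complex III (-0.94), 10 of 18 of complex IV (-0.76) and 13 of 15 of complex V (-0.96). All 7 core subunits of complex I were called, and 21 of the 29 accessory ones. The mt- genes again had the most negative median, -1.65, with 9 of 12 lower and 12 of 12 without wild-type mouse 2. Sdha was at -1.42 ± 0.17 (SE), adjusted p = 3.36e-05, and Ndufs1 at -1.63 ± 0.17 (SE), adjusted p = 1.49e-05. mt-Nd2 was at -2.26 ± 0.27 (SE), adjusted p = 3.65e-05, and Cox6a2 at -4.38 ± 0.77 (SE), adjusted p = 0.000589. Cox6b2 was at 1.60 ± 0.45 (SE), adjusted p = 0.0116, and was called in each of the 12 fits that left out 1 library. Proximal tubule markers fell here too, 18 of 18 with a median of -2.79, and skeletal muscle markers fell, 12 of 12 with a median of -4.84. The part of the muscle markers in the Cox6a2 and Cox7a1 values was not tested.

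Healthy knock-in and wild-type kidneys, which differ in genotype, gave no called gene among the 102 with edgeR, beside 0.314% of all genes. At an unadjusted p below 0.05 there was 1, Ndufa4l2, at -0.65 ± 0.29 (SE), adjusted p = 0.912. DESeq2 and limma-voom also called 0 at an adjusted p below 0.05, with 2 (Cox8b and Ndufa4l2) and 4 (Uqcrb, Ndufaf4, Cox6a2 and Cox7b) genes at an unadjusted p below 0.05. These numbers lie below the share of 0.05 that such a threshold passes by chance, so none of these genes is read as changed. The median log2 fold change was -0.34 and became -0.04 without wild-type mouse 2, so the shift below 0 rests on that library. Healthy knock-in mice lay below all wild-type mice in 11 genes, beside 1.8% of all genes tested, and above them in 1, Cox8b. Without wild-type mouse 2 they lay below in 13 genes, beside 3.69% of all, and above in 4, Ndufb4, Cox8b, Cox6a2 and Cox7a1. The share of all genes lying wholly above was not computed, so the genes above are named without a background. The 11 were Sdhb, Ndufb9, Atp5j, Ndufa5, Ndufv2, Cox7a2l, Atp5c1, Ndufaf4, Ndufab1, Uqcrc2 and Ndufc1. For example, Ndufaf4 was at -0.32 ± 0.18 (SE), adjusted p = 0.912, and Sdhb at -0.35 ± 0.24 (SE), adjusted p = 0.912. Of the mt- genes, mt-Nd2 was at 0.08. Skeletal muscle markers were the list that differed here, with 12 of 12 higher in the healthy knock-in mice and a median of 7.93.

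Transcript length was set against each library's values. Each library was set against the mean of the other 3 of its group, with 0.5 CPM added, over 84 tested nuclear genes with a transcript length, leaving out the tissue-restricted isoforms. In wild-type mouse 2 the median was 2.16-fold for 20 genes under 600 bases, 2.05-fold for 27 genes of 600 to 999 bases and 1.59-fold for 37 genes of 1000 bases or more. Spearman's rho with length was -0.60 over these genes and -0.64 over all genes tested with a length. Sick mouse 3 was at 1.86-fold, 1.88-fold and 1.65-fold in the same bins, with a rho of -0.48, and -0.53 over all genes. The other sick and wild-type mice, except sick mouse 4, ran the opposite way, and sick mouse 3 or wild-type mouse 2 is part of the means they were set against. Over the nuclear genes Spearman's correlation with length was 0.39, 0.41 and -0.19 in sick mice 1, 2 and 4, 0.35, -0.30, -0.16 and -0.01 in healthy knock-in mice 1 to 4 and 0.39, 0.60 and 0.57 in wild-type mice 1, 3 and 4. Over all genes it was between -0.07 and 0.08 in the healthy knock-in mice. Genes in a library share its depth and preparation, so these are descriptions.

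Fold changes moved with length as well. Sick against wild-type, medians were -1.17, -1.25 and -1.37 from the shortest to the longest bin, and -0.83, -0.92 and -1.13 without wild-type mouse 2. Sick against healthy knock-in they were -0.80, -0.88 and -1.05. All 3 bins were lower in sick mice in each comparison. For healthy knock-in against wild-type, rho with length was 0.51 with all libraries and -0.22 without wild-type mouse 2. The part of length in the differences between genes was not tested.

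**Figure D5:**
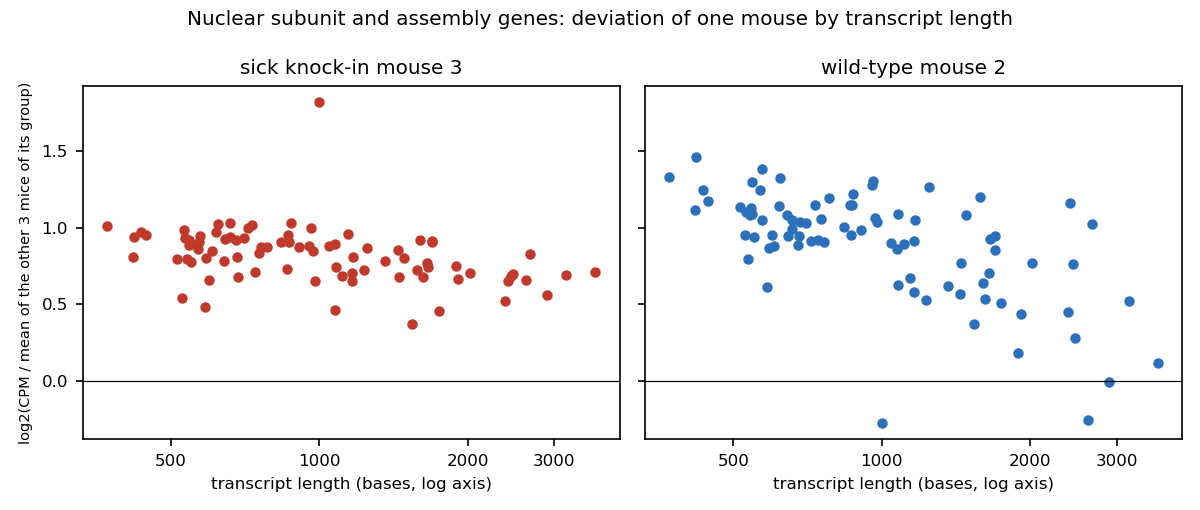
Level of each nuclear gene in sick mouse 3 (left) and in wild-type mouse 2 (right) relative to the other 3 mice of its group, in log2, against transcript length in bases on a log axis. Short transcripts are further above the group than long ones in both mice, at a median of 2.16-fold under 600 bases and 1.59-fold from 1000 bases in wild-type mouse 2.

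Other mitochondrial genes were read from lists outside the rule. Over all genes tested, 25% were lower and 25.9% higher against wild-type, and 21.9% and 24.5% against healthy knock-in mice. Against wild-type, 30 of 36 further assembly and cofactor genes were lower in sick mice (median -0.90), led by Acad9, a complex I assembly factor, at -2.0 ± 0.15 (SE), adjusted p = 1.8e-06. Acad9 had 35, 32.0, 44.0 and 41.1 CPM in the sick mice, 122, 137, 142 and 142 CPM in the healthy knock-in mice and 144, 191, 135 and 140.0 CPM in the wild-type mice. All 16 mobile electron carriers and their donors fell (median -1.28). Cycs, cytochrome c itself, was at -2.12 ± 0.31 (SE), adjusted p = 0.000118. All 17 genes of the citric acid cycle and pyruvate dehydrogenase fell (median -1.33). Import, channel and chaperone genes were lower in 18 of 20 (median -1.0), with Hspd1, the matrix chaperonin, at -1.95 ± 0.17 (SE), adjusted p = 4.3e-06.

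Genes that maintain and express mitochondrial DNA were lower in 14 of 18 (median -0.92), with Lrpprc, which stabilises mitochondrial mRNA, at -1.24 ± 0.14 (SE), adjusted p = 1.65e-05. Mitochondrial ribosome genes were lower in 68 of 76 (median -0.90), with Mrpl12 at -1.48 ± 0.28 (SE), adjusted p = 0.000852. Among 11 regulators of mitochondrial biogenesis 5 fell and 1 rose (median -0.84). Esrra, a nuclear receptor that drives respiratory genes, was at -1.43 ± 0.23 (SE), adjusted p = 0.000236, and Pprc1, a PGC-1-related coactivator, at 0.67 ± 0.24 (SE), adjusted p = 0.0331. When wild-type mouse 2 was left out, 6 regulators were lower and Pprc1 was not called, at 0.47 (adjusted p = 0.065). Glycolysis genes went both ways: 8 of 16 fell and 3 rose (median -0.49). With library totals 3 were lower and 6 higher (median 0.094). Hk2, an inducible hexokinase, was at 3.96 ± 0.40 (SE), adjusted p = 9.69e-06, and Tpi1, triosephosphate isomerase, at -1.26 ± 0.24 (SE), adjusted p = 0.000803. Hk2 had 19.3, 13.3, 7.75 and 21 CPM in the sick mice, 2.03, 2.05, 2.06 and 2.5 CPM in the healthy knock-in mice and 0.808, 0.471, 0.866 and 1.76 CPM in the wild-type mice. Every sick mouse was above every other mouse for Hk2. Against healthy knock-in mice the genes lower in sick mice numbered 21 of 36 for assembly and cofactors, 14 of 16 for carriers, 17 of 17 for the citric acid cycle and 17 of 20 for import. They numbered 13 of 18 for mitochondrial DNA, 38 of 76 with 2 higher for the ribosome, 5 of 11 for regulators and 6 of 16 with 2 higher for glycolysis.

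The scaling moved these counts. With library totals, 10.3% of all genes tested were lower and 53.9% higher against wild-type, and 9.16% and 55% against healthy knock-in mice. In the latter comparison with library totals, the ribosome and regulator genes called lower were near the share of all genes. With library totals in place of TMM, where the median over all genes was 0.61, sick against wild-type mice had 10 of 36 assembly and cofactor genes lower and 1 higher, 10 of 16 carriers lower and 16 of 17 genes of the citric acid cycle lower. Import genes were lower in 10 of 20, mitochondrial DNA genes in 7 of 18 with 1 higher, ribosome genes in 17 of 76 with 3 higher and regulators in 2 of 11 with 4 higher. Against healthy knock-in mice, where that median was 0.63, the numbers were 7 lower and 4 higher for assembly and cofactors, 9 lower for carriers, 16 lower for the citric acid cycle, 6 and 1 for import, 4 and 3 for mitochondrial DNA, 6 and 6 for the ribosome, 1 and 4 for regulators and 5 and 6 for glycolysis. Ribosome genes were 60 lower and 3 higher against wild-type without wild-type mouse 2, and 59 lower and 3 higher against healthy knock-in mice. Over all genes without wild-type mouse 2, 25.9% were lower and 26.9% higher against wild-type, and 25.9% and 27.7% against healthy knock-in mice.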

How the data were processed

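Total RNA from kidney of 12 male mice was sequenced. The deposited table holds raw whole-number counts per gene for each library, per the file headers. Per the submitters' processing notes, the authors worked on GRCm38 and used TopHat2 2.0.11 and Cufflinks, with Trim Galore 0.3.7 and DESeq2 1.12.4 also named. The counting program, annotation release and strand setting were not given in the sources used here. A further 12 per-sample columns of normalized values were not used.

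Counts were tested with edgeR 4.0.16 (R 4.3.3, TMM, filterByExpr, quasi-likelihood test, 15589 genes, common biological coefficient of variation 0.27, 1 mean per group over 12 libraries) with Benjamini-Hochberg adjustment. The fit was checked on simulated data in which few genes changed, so that check does not cover the scaling of groups as unlike as these. Alternatives were DESeq2 1.42.0, limma-voom 3.58.1, library totals, other filters, the groups compared alone, a replicate block and leaving out each library. The series design gives 4 mice per state, and the labels name no litter or batch. Positions and transcript lengths (median of basic principal protein-coding transcripts) came from GENCODE M21, promoter sequences from RefSeq.

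Members and lists were chosen with earlier results of these data known. Genes named are the mt- genes, those with the lowest and highest fold change and the highest CPM in each complex and among the assembly factors, genes called higher in any comparison, complex II, the isoform pairs and, of each list, the called genes with the lowest and highest values. Some genes that these choices take are not reported here.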

Additional observations from a re-analysis of the deposited data

Results flagged for a closer look

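In 129 groups of 4 mice, 23 had 1 mouse far from the other 3, by Dixon's limit for 4 values. Each is 1 named gene, or the mt- or nuclear share of counts, in 1 group of mice. The limit flags about 1 in 20 independent groups by chance. These groups share the same 12 libraries, so the 23 cannot be set against that rate. Wild-type mouse 2 was the mouse set apart in 18. It was high for Atp5b at 4884 CPM, Cox4i1 at 1105 CPM, Ndufa4 at 1005 CPM, Uqcrc1 at 897 CPM, Cox8a at 731 CPM, Sdhb at 644 CPM, Cox6b1 at 632 CPM and Uqcrfs1 at 611 CPM. It was also high for Uqcrh at 448 CPM, Sdhd at 446 CPM, Cox7a2 at 406 CPM, Atp5k at 285 CPM, Ndufa7 at 98.3 CPM and Cox6a2 at 10.2 CPM. The nuclear genes took 3.17% of its counts, and mt-Atp6, mt-Atp8 and mt-Co3 were at 0 CPM there.

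The other 5 were Cox7b in sick mouse 3 at 315 CPM and in healthy knock-in mouse 1 at 364 CPM, Cox8b in sick mouse 4 at 8.68 CPM, Uqcrfs1 in healthy knock-in mouse 4 at 446 CPM, and the mt- share of healthy knock-in mouse 2 at 14.3% of counts, the lowest of its group.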

How the results depend on the processing

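With library totals alone the median over all genes was 0.61 (sick against wild-type) and 0.63 (sick against healthy knock-in). Relative to those medians the 102 genes were at -1.35 and -1.01, against -1.34 and -0.99 with TMM. A change of scaling shifts all genes of a comparison by nearly the same amount, so this likeness follows from the method. On the totals scale the medians in sick against wild-type mice were -0.71 for nuclear genes, -1.13 for mt- genes, -0.49 for assembly factors and -0.73, -0.85, -0.80, -0.59 and -0.76 for complexes I to V, with 68 lower and 2 higher, beside 10.3% and 53.9% of all genes. In sick against healthy knock-in mice they were -0.33, -1.07, -0.17 and -0.33, -0.63, -0.37, -0.19 and -0.39, with 31 lower and 4 higher (Cox7a2l, Cox8b, Ndufa4l2 and Cox6b2), beside 9.16% and 55% of all genes. Atp5g2 changed sign against wild-type, to 0.034 (adjusted p = 0.872).

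The 2 genes higher in sick than in wild-type mice became 1 with a filter of 1 CPM in 4 libraries, 0 with the 8 libraries alone, and 1 to 2 when 1 library was left out. Genes higher against healthy knock-in mice numbered 1 to 2 when 1 library was left out. Lower genes numbered 90 to 96 and 53 to 95 in these fits, given without the share of all genes called. Deviations of same-numbered mice from their group means had correlations of -0.26 to 0.243. In 9 of 24 comparisons of a mouse with another group the same-numbered mouse was the best match. This was 4 of 8 in each comparison with wild-type and 1 of 8 between the knock-in groups. The labels do not say what the numbers mark, and whether they mark a litter, batch or day was not tested. With the replicate block 94 genes were lower and 2 higher against wild-type, 76 and 1 against healthy knock-in mice, and 0 between healthy knock-in and wild-type mice.

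Of the values for single named genes, 2336 were classed as the same, 36 lost the call, 34 gained it and 43 uncalled values or levels moved. In 1, Atp5g2 against wild-type with library totals, a called value changed sign. Uncalled values that changed sign, such as Ndufa4l2 without wild-type mouse 2, are not part of that 1. Depth limits Cox6a2, Cox8b, Cox4i2, Cox7b2 and mt-Nd4l, which had few counts in some or all groups.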
